A study of Sus scrofa with 24 samples.

Results

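The ovary of the Chenghua pig was compared between day 105 of pregnancy and postnatal day 3 by sequencing of polyadenylated RNA. The comparison used 6 libraries, 3 from pregnant sows (Pregnancy) and 3 from piglets (Day 3), of 12 mRNA libraries and of 24 libraries in all; the columns were taken by their stage labels and all genes were kept. The other 6 mRNA libraries came from sows just entering puberty at day 120 (Puberty) and from mature sows in their 1st year (Year 1). They entered the fit that set the spread of each gene. All animals were healthy, shared housing and a comparable diet, and had no recorded reproductive disease. Each ovary was rinsed, sliced into pieces and snap-frozen before RNA was extracted. The labels do not give the age or parity of the pregnant sows, so age and pregnancy cannot be told apart here. They also do not say which structures a piece of ovary held. The p-values therefore set the stage difference against a spread between libraries that holds differences between animals and between pieces. That spread was estimated within the stages of all 12 mRNA libraries.

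As background, a pig is born with its ovary still forming primordial follicles. Female germ cells that have gone through early meiosis arrest, lose their nests and become enclosed by pregranulosa cells, and many die. Follicles that grow later gain granulosa and theca layers, which together make androgens and oestrogens. After ovulation the follicle wall turns into a corpus luteum, which takes up cholesterol and makes progesterone. In the pig the corpora lutea persist through gestation, maintain it, and are the main source of relaxin.

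Both groups carried the transcripts that define the ovarian somatic lineage. FOXL2, a transcription factor of granulosa cells, was at 64.5, 82.9 and 85.9 TPM at Day 3 and at 39.7, 51.3 and 69.7 TPM in Pregnancy, where TPM (transcripts scaled to a common library total) is a level corrected for transcript length. GATA4, another gonadal factor, lay between 48.1 and 137 TPM in the 6 libraries. Lists of surface epithelium and mesothelium genes and of skeletal muscle genes were also summed. The surface epithelium and mesothelium list summed to 910, 764 and 653 TPM at Day 3 and to 115, 98.2 and 172 TPM in Pregnancy. The skeletal muscle list summed to 13.5, 18.1 and 16.5 TPM at Day 3 and to 5.05, 6.66 and 16.1 TPM in Pregnancy, with its defining actin ACTA1 at 0.14 TPM or lower in all 6 libraries.

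The libraries held 14615474 to 16187915 counts. Between 17570 and 17706 genes were detected at Day 3 and between 16304 and 16753 in Pregnancy. Over the genes tested, the root mean square log2 difference was 0.438 to 0.531 between pairs of Day 3 libraries. Pregnancy replicates 1 and 2 lay 0.544 apart. Pregnancy replicate 3 stood apart, at a distance of 1.2 from both of its stage mates. Pregnancy replicates 1 and 2 lay 1.43 to 1.53 from the Day 3 libraries, and replicate 3 lay 1.86 to 1.92 from them. In replicate 3, 43.8% of genes were over 2-fold from the Day 3 mean, against 31.5% and 31.3% in replicates 1 and 2. Results that rest on replicate 3 are given with and without it.

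Many germ-cell, meiotic, oocyte, epithelial and ciliary genes were lower in late pregnancy, and many contractile, vascular and macrophage genes were higher. Of 15699 genes tested, 5301 (33.8%) differed between the stages at an adjusted p under 0.05 (edgeR quasi-likelihood test), 2477 (15.8%) higher and 2824 (18%) lower in Pregnancy. Large changes were mostly falls: among the 2052 called genes that changed by over 4-fold, 437 rose and 1615 fell. The 2 groups of 3 libraries did not overlap for 8897 genes (56.7%), 4496 of them (28.6%) higher and 4401 (28%) lower in Pregnancy.

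The balance of rises and falls depended on how libraries were scaled. TMM scaling, used throughout unless stated, gave the Day 3 libraries factors of 1.21 to 1.255 and the Pregnancy libraries 1.008, 1.021 and 0.8406. On the scale of the deposited TPM values 507 genes rose and 5491 fell, and the median change of all genes moved from 0.10 to -0.54 (log2). With library totals alone 933 rose and 3848 fell, with a median of -0.28. With upper-quartile scaling 1763 rose and 3071 fell, and with RLE scaling 2032 rose and 3012 fell. A small rise therefore depends on the scale, so counts on the TPM scale are given for the groups below. Each count with TMM scaling is to be read against the 15.8% of all genes that rose and the 18% that fell. Each count on the TPM scale is to be read against the 507 of 15699 that rose there and the 5491 that fell. The count of rises was also the less stable: it was 1298, 1137 and 1206 without Day 3 replicates 1, 2 and 3, and the total count was 3618, 3274 and 3497. Genes named below as risen or fallen kept that call in each of the 12 fits that left out 1 library, unless the text says otherwise.

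**Figure D1:**
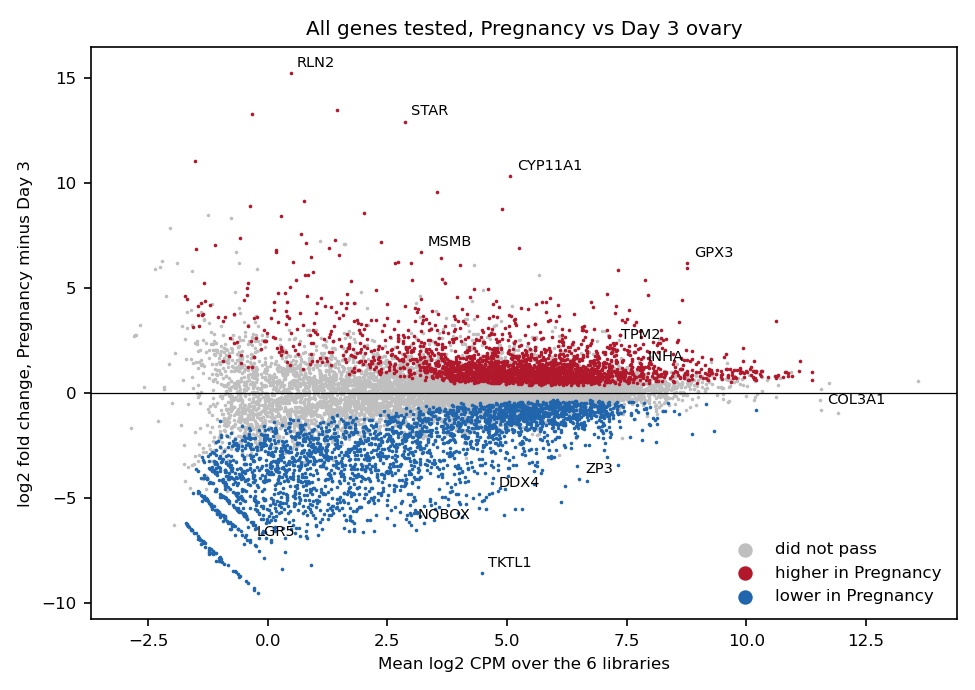
Log2 fold change of every gene tested (vertical axis, Pregnancy minus Day 3, TMM scaling) against its mean log2 CPM over the 6 libraries (horizontal axis). Red points rose, blue points fell and grey points did not pass an adjusted p of 0.05; the falls extend further below 0 than most rises extend above it, and the diagonal lines of blue points at the lower left are genes at or near 0 counts in Pregnancy.

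Most germ-cell genes tested fell. Among 21 early germ-cell and piRNA genes, many of which protect the germline genome from transposons, 17 fell and none rose. Over all genes 18% fell. The same numbers of the 21 fell and rose on the TPM scale, where 5491 of 15699 genes fell. With TMM scaling the median log2 change of the 21 was -4.78, against 0.10 over all genes. DDX4, an RNA helicase that marks germ cells (chr16:34879701-34983701, Sscrofa11.1), was at 128, 138 and 90.9 TPM at Day 3 and at 2.27, 3.34 and 2.77 TPM in Pregnancy. Every Day 3 library was far above every Pregnancy library, and the log2 change was -4.78 ± 0.23 (SE; adjusted p = 9.69e-06), the lowest p of all genes tested. MAEL, a piRNA pathway gene (chr4:83990266-84040465), was at 130, 167 and 127 TPM at Day 3 and at 2.12, 3.15 and 1.7 TPM in Pregnancy (log2 change -5.29 ± 0.34, adjusted p = 4.1e-05). DAZL, an RNA-binding protein of germ cells, was at 12.1, 6.77 and 3.92 TPM at Day 3 and at 0.07 TPM or lower in Pregnancy (-6.91 ± 0.75, adjusted p = 0.000237). The piRNA genes GTSF1 and MOV10L1 fell by 5.54 ± 0.40 and 6.14 ± 0.52 on the log2 scale, and the log2 change of the PIWI gene PIWIL1 was -6.20 ± 0.83. Fewer germ cells in a piece of ovary and less of these RNAs in each germ cell cannot be told apart in bulk tissue. PIWIL4 (-0.39 ± 0.75, adjusted p = 0.714) and TDRD12 (-1.34 ± 0.65, adjusted p = 0.136) did not pass.

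Of 20 genes of meiotic prophase 12 fell and none rose, with a median of -3.19, and 15 fell on the TPM scale. SYCP3, of the synaptonemal complex that joins homologous chromosomes, was at 112, 118 and 80.7 TPM at Day 3 and at 0.99, 1.97 and 0.2 TPM in Pregnancy (log2 change -5.98 ± 0.78, adjusted p = 0.000557). The meiotic cohesin gene STAG3 was at 41.8, 46.8 and 29.1 TPM at Day 3 against 0.49, 1.29 and 0.89 TPM (-4.80 ± 0.37, adjusted p = 5.72e-05). The groups did not overlap for either gene. STRA8, which starts meiosis, fell by 2.48 ± 0.60 from low levels of 3.23, 1.29 and 1.22 TPM. MEIOB, which works in meiotic recombination, had values of 29.2, 28.1 and 34.6 TPM at Day 3 and 32.9, 36.8 and 17 TPM in Pregnancy (0.51 ± 0.29, adjusted p = 0.193). It was 1 of 8 members that did not pass, with 4 of the 20 having a positive log2 change.

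Oocyte transcripts fell by differing amounts. In the list of oocyte and egg-coat genes 15 of 22 fell and none rose, with a median of -3.01, and 16 fell on the TPM scale. NOBOX, a transcription factor of primordial-follicle oocytes (chr9:113348363-113354504), was at 87.8, 127 and 111 TPM at Day 3 and at 0.52, 1.99 and 0.12 TPM in Pregnancy (log2 change -6.31 ± 0.94, adjusted p = 0.00106). FIGLA, which switches on egg-coat genes, was at 112, 155 and 99.3 TPM against 0.8, 2.26 and 0.32 TPM (-6.04 ± 0.69, adjusted p = 0.000329). LHX8, a partner of these factors, fell by 4.97 ± 0.74, and ZAR1, a maternal-effect gene, by 5.52 ± 1.00. GDF9, the growth factor that oocytes send to granulosa cells, was at 170, 206 and 273 TPM at Day 3 and at 26.9, 28 and 11.3 TPM in Pregnancy (-2.67 ± 0.35, adjusted p = 0.000564). The groups did not overlap for NOBOX, FIGLA or GDF9.

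Egg-coat genes and BMP15 varied widely between libraries. ZP3 was at 607, 781 and 1076.1 TPM at Day 3 and at 35.6, 51.9 and 6.6 TPM in Pregnancy (log2 change -4.10 ± 1.17, adjusted p = 0.0222). That call was lost without Day 3 replicate 3, Pregnancy replicate 1 or Pregnancy replicate 3 (highest adjusted p = 0.0591). ZP4 was at 193, 168 and 580 TPM against 30.4, 40.3 and 7.16 TPM and did not pass (-2.98 ± 1.14, adjusted p = 0.0658) except without Year 1 replicate 1 or replicate 2. ZP2 ran the other way, at 1.92, 3.94 and 8.53 TPM at Day 3 and at 20.8, 20.7 and 4.13 TPM in Pregnancy; it did not pass (2.27 ± 1.12, adjusted p = 0.139), the groups overlapped, and it passed without Year 1 replicate 2 (adjusted p = 0.0487). BMP15, the partner of GDF9, was at 47.9, 118 and 88.9 TPM against 24.6, 40.7 and 5.37 TPM (-1.24 ± 1.07, adjusted p = 0.393). In each of these genes Pregnancy replicate 3 was the lowest Pregnancy library.

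**Figure D2:**
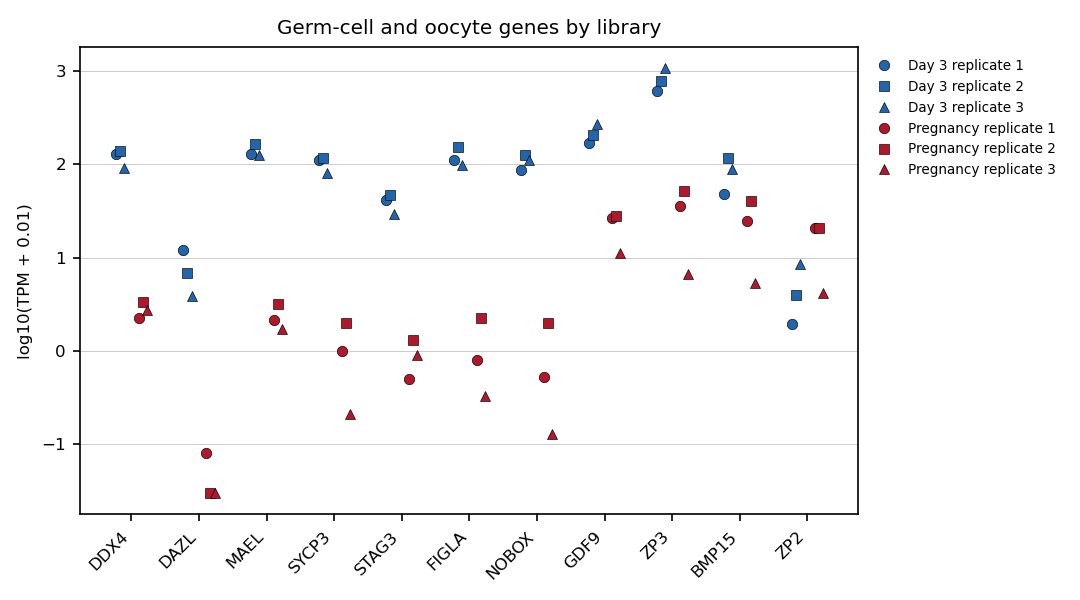
Levels of 11 germ-cell and oocyte genes in each library, as log10 of TPM + 0.01; blue symbols are Day 3 and red symbols Pregnancy, with circles, squares and triangles for replicates 1, 2 and 3. DDX4, MAEL, SYCP3, STAG3, FIGLA and NOBOX lie more than 1 log10 unit lower in all Pregnancy libraries, whereas BMP15 and ZP2 do not pass the test.

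The 10 largest falls among well-expressed genes included NOBOX and genes of several other kinds. TKTL1, a transketolase-like gene (chrX:124840072-124867313), was at 564, 423 and 201 TPM at Day 3 and at 0.59, 1.22 and 0.18 TPM in Pregnancy, and its log2 change of -8.59 ± 1.07 (adjusted p = 0.000473) was the largest of the 10. STK31, a kinase-like gene of germ cells, fell by 6.20 ± 0.78. The others were CTRB2, which encodes a chymotrypsinogen (145, 282 and 310 TPM against 2.2, 1.71 and 1.24 TPM; -6.52 ± 0.83, adjusted p = 0.000504), the enteropeptidase gene TMPRSS15 (-5.94 ± 0.91), the prominin gene PROM2 (-6.06 ± 0.84), and MYBPC1, MYO15B, BAIAP2L1 and MAP7D2, whose log2 changes lay between -5.88 and -5.72. The spermine synthase gene SMS, among the 10 lowest p-values, was at 592, 755 and 603 TPM at Day 3 against 39, 47.1 and 30.9 TPM (-3.43 ± 0.23, adjusted p = 4.1e-05). AURKA, a mitotic and meiotic kinase, fell by 3.47 ± 0.52 (224, 279 and 453 TPM against 18.8, 26.9 and 9.85 TPM; adjusted p = 0.00113). With PCNA (-1.51 ± 0.36), a replication clamp, it was 1 of 2 members of the 32-gene cell cycle list that fell; none rose, and the list median was -0.02. On the TPM scale 6 fell, where 5491 of 15699 genes fell. With TMM scaling 4, 7 and 4 fell without Puberty replicate 3, Year 1 replicate 1 and Year 1 replicate 2.

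In the granulosa list 6 of 25 members rose and 5 fell in the fit of 12 libraries. These counts were close to the shares of all genes that rose (15.8%) and fell (18%). On the TPM scale 5 rose and 5 fell. FST, which encodes the activin-binding protein follistatin (chr16:32806341-32811382), was at 17.8, 18 and 19.5 TPM at Day 3 and at 182, 173 and 105 TPM in Pregnancy (log2 change 3.68 ± 0.52, adjusted p = 0.00083). All Pregnancy libraries were above all Day 3 libraries. The gap junction gene GJA1, which couples granulosa cells, rose by 2.44 ± 0.58 and the protease gene HTRA1 by 2.36 ± 0.38. Among those that fell, NR0B1, a repressor of steroidogenic genes, was at 35, 30 and 42.8 TPM against 1.84, 1.56 and 0.34 TPM (-4.23 ± 0.80, adjusted p = 0.00325), and the oestrogen receptor gene ESR2 fell by 2.92 ± 0.66 (adjusted p = 0.00782). The count of rises depended on the libraries fitted. It was 10 without Year 1 replicate 1 or replicate 2. With only the 6 libraries fitted 12 rose and 5 fell, where 2527 of 15386 genes rose and 3172 fell. With limma voom and quality weights 12 rose and 6 fell, where 4359 of 15699 genes rose and 4329 fell. The cause was not tested.

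Several classical granulosa genes did not pass in the fit of 12 libraries. AMH, made by small growing follicles, was at 30.1, 34.4 and 61.6 TPM at Day 3 and at 89.4, 118 and 18 TPM in Pregnancy (1.44 ± 1.05, adjusted p = 0.31); replicates 1 and 2 were above and replicate 3 below all Day 3 libraries. The FSH receptor gene FSHR was at 5.86, 7.77 and 8.61 TPM against 46, 41.3 and 11 TPM, without overlap. It did not pass (2.79 ± 1.21, adjusted p = 0.0978), except without Year 1 replicate 1 or replicate 2 (lowest adjusted p = 0.00307). FSHR also passed with only the 6 libraries fitted (2.77, adjusted p = 0.0078). INHA, the inhibin alpha subunit, was at 251, 294 and 269 TPM at Day 3 and at 398, 398 and 404 TPM in Pregnancy. It did not pass in the fit of 12 libraries (1.20 ± 1.05, adjusted p = 0.402), in which Year 1 libraries ran from 311 to 9078.9 TPM, and passed with only the 6 libraries fitted (1.18, adjusted p = 0.00307). CYP19A3, 1 of several near-identical pig aromatase copies whose reads are uncertain, was at 0.43 TPM or lower at Day 3 and at 14.7, 10.6 and 23.9 TPM in Pregnancy (7.08 ± 2.56, adjusted p = 0.0547). It passed without any 1 of Puberty replicates 1 and 3 and Year 1 replicates 1, 2 and 3 (lowest adjusted p = 0.0141). CYP19A3 also passed with only the 6 libraries fitted (7.07, adjusted p = 0.00198).

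Of 16 theca genes tested, 9 rose and none fell, against 15.8% of all genes that rose, with a median of 1.73. CYP17A1, which makes androgens, was at 0.54, 0.14 and 0.95 TPM at Day 3 and at 38.9, 87.7 and 30 TPM in Pregnancy (log2 change 7.18 ± 1.73, adjusted p = 0.0104). LHCGR, the receptor for luteinizing hormone, was at 2.52, 4.07 and 1.19 TPM against 21.3, 16.3 and 66.4 TPM (4.58 ± 0.92, adjusted p = 0.00417). INSL3, a relaxin-family hormone of theca cells, was at 34.5, 59.3 and 11.8 TPM against 1759.9, 1219.1 and 363 TPM and missed the threshold (5.60 ± 2.01, adjusted p = 0.0532) except without any 1 of the Year 1 libraries. The groups did not overlap for any of the 3 genes. The count of theca genes that rose was 4 on the TPM scale, and 4 without any 1 of the Day 3 libraries. It was 7, 6 and 6 without Pregnancy replicates 1, 2 and 3, and the median was 1.35 without replicate 3. Of the 16 genes, 8 also stand in another list. CYP11A1, HSD3B1 and LHCGR count as rises in both the theca and the luteal list.

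Luteal and steroidogenic transcripts were highest in Pregnancy replicate 3. The luteal list summed to 890, 830 and 784 TPM at Day 3 and to 3258.8, 3115.4 and 76140.5 TPM in Pregnancy. Of its 21 genes 12 rose and 1 fell (11 and 1 on the TPM scale), with a median of 4.09; without replicate 3 these were 7 and 1, with a median of 1.12, and 5 rose without Day 3 replicate 2 or replicate 3. Of the 21, 17 also stand in another list. CYP11A1, the mitochondrial enzyme that makes pregnenolone from cholesterol (chr7:59172829-59188479), was at 1.57, 2.61 and 2.3 TPM at Day 3 and at 119, 159 and 4869.0 TPM in Pregnancy. All Pregnancy libraries were above all Day 3 libraries; the log2 change was 10.32 ± 1.97 (adjusted p = 0.00334), and 6.57 (adjusted p = 0.00271) without replicate 3. STAR, which carries cholesterol into mitochondria (chr15:48377597-48385398), was at 0.18, 0.42 and 0.24 TPM against 5.88, 11.8 and 3948.6 TPM. Its log2 change was 12.92 ± 3.16 (adjusted p = 0.0111), and 5.56 (adjusted p = 0.0261) without replicate 3. The call of STAR was lost in limma voom with quality weights (5.76, adjusted p = 0.0568). Such weights can lower the pull of a library that departs from its stage mates. FDX1, the electron donor to CYP11A1, was at 42.9, 43.3 and 44.8 TPM against 174, 154 and 1036.8 TPM (4.09 ± 0.80, adjusted p = 0.00383; 2.50 without replicate 3). NR5A2, a nuclear receptor that drives steroidogenic genes, was at 1.04, 0.67 and 1.06 TPM against 10.6, 5.89 and 123 TPM (6.42 ± 1.28, adjusted p = 0.00405; 3.78 without replicate 3).

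In other luteal genes the call rested on replicate 3. HSD3B1, whose product turns pregnenolone into progesterone, was at 131, 122 and 91.2 TPM at Day 3 and at 142, 145 and 8474.3 TPM in Pregnancy (log2 change 5.38 ± 1.71, adjusted p = 0.0345; 0.91 and adjusted p = 0.494 without replicate 3). SCARB1, the receptor for high-density lipoprotein, was at 44.4, 42.9 and 47.5 TPM against 47.5, 60.8 and 4577.4 TPM (5.84 ± 1.76, adjusted p = 0.0279; 0.86 and adjusted p = 0.458 without it). RLN2, the relaxin gene (chr1:216763546-216769802), was at 1.81, 0.54 and 0 TPM at Day 3 and at 0.22, 0 and 49365.1 TPM in Pregnancy, so that replicates 1 and 2 lay within the Day 3 range. Its call (15.23 ± 4.83, adjusted p = 0.0338) ended and its sign turned without replicate 3 (-2.06, adjusted p = 0.756). PTGFR, the receptor through which prostaglandin F2 alpha ends luteal function, was at 3.61, 2.71 and 2.67 TPM against 17, 9.74 and 621 TPM (6.88 ± 1.91, adjusted p = 0.0195; 2.72 and adjusted p = 0.102 without it). PTGFR was above all Day 3 libraries in replicates 1 and 2 as well. The calls of HSD3B1, SCARB1, RLN2 and PTGFR were also lost without any 1 of the Day 3 libraries. In limma voom with quality weights the changes of HSD3B1 (1.17, adjusted p = 0.131) and SCARB1 (1.18, adjusted p = 0.134) did not pass. MSMB, a secreted protein, differed from these: it was at 9.45, 6.57 and 6.03 TPM at Day 3 and at 335, 574 and 549 TPM in Pregnancy, with replicate 3 among its stage mates (6.70 ± 1.67, adjusted p = 0.0121). Its call was lost without Day 3 replicate 2 (adjusted p = 0.0522) or replicate 3. The progesterone receptor gene PGR was the luteal gene that fell (5.54, 5.59 and 4.91 TPM against 1.11, 0.94 and 0.8 TPM; -1.85 ± 0.49, adjusted p = 0.0163).

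**Figure D3:**
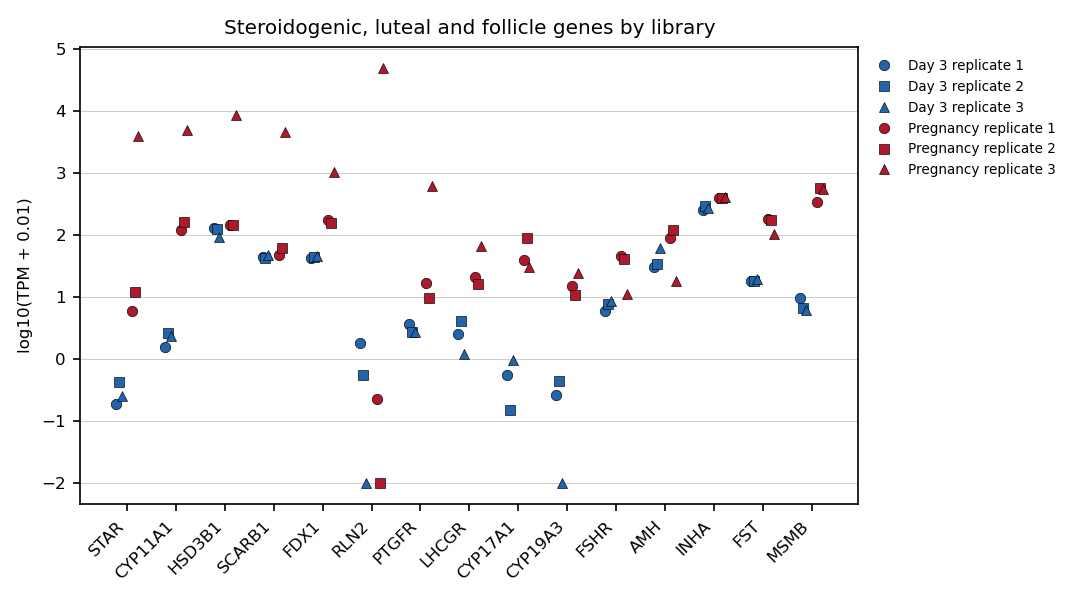
Levels of 15 steroidogenic, luteal and follicle genes in each library, as log10 of TPM + 0.01, with the same colours and symbols as the germ-cell plot. Pregnancy replicate 3 (red triangles) lies more than 1 log10 unit above its stage mates for STAR, CYP11A1, HSD3B1, SCARB1, RLN2 and PTGFR, near them for INHA and MSMB, and below them for FSHR and AMH; RLN2 is at 0 TPM in 1 library of each stage.

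In the steroid synthesis list, which shares 12 of its 23 tested genes with other lists, 10 rose and 1 fell (7 and 2 on the TPM scale, 8 and 1 without Pregnancy replicate 3). The steroid sulfatase gene STS was the one that fell, from 7.65, 17.4 and 12 TPM to 1.12, 1.36 and 1.44 TPM (-2.59 ± 0.40, adjusted p = 0.00122). In the cholesterol synthesis and uptake list 7 of 30 rose and 1 fell, with a median of 1.39, and on the TPM scale 3 rose and 2 fell. Without Pregnancy replicate 3 these were 2 and 2, with a median of 0.27; without any 1 of the Day 3 libraries 1 rose, and without Year 1 replicate 1 13 rose. The list's summed level was 1397.0, 1562.9 and 1692.1 TPM at Day 3 and 1228.5, 1158.2 and 9818.8 TPM in Pregnancy, where replicates 1 and 2 were below and replicate 3 above all Day 3 libraries. LIPA, which frees cholesterol in lysosomes, kept its rise without replicate 3 (50.1, 49.7 and 39.6 TPM against 92.4, 101 and 494 TPM; 2.99 ± 0.73, adjusted p = 0.0111; 1.64 and adjusted p = 0.0286 without it).

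Of 20 contractile and pericyte genes 14 rose and none fell, with a median of 2.21; 11 rose and 1 fell on the TPM scale, and 13 rose and 1 fell without Pregnancy replicate 3. ACTA2, the smooth muscle actin of vessel walls and of the theca externa, was at 281, 185 and 170 TPM at Day 3 and at 1086.1, 1566.0 and 565 TPM in Pregnancy (log2 change 2.97 ± 0.51, adjusted p = 0.00193). The tropomyosin gene TPM2 was at 161, 129 and 133 TPM against 488, 635 and 361 TPM (2.27 ± 0.23, adjusted p = 0.00016). PLN, a regulator of the calcium pump, was at 3.76, 4.64 and 4.43 TPM against 44.3, 26.2 and 20.5 TPM (3.44 ± 0.40, adjusted p = 0.000353). The groups did not overlap for these genes, and Pregnancy replicate 3 was the lowest Pregnancy library in each.

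Of 26 endothelial genes tested, 15 rose and none fell, with a median of 1.44. On the TPM scale 7 rose and 1 fell. Without Pregnancy replicate 3, 12 rose, with a median of 0.95. Without Day 3 replicates 1, 2 and 3 the counts of rises were 10, 10 and 11. VWF, the adhesive protein of endothelium, was at 13.7, 12.6 and 14 TPM at Day 3 and at 27.4, 50.4 and 81.3 TPM in Pregnancy (2.64 ± 0.48, adjusted p = 0.00262). The endothelial transcription factor ERG was at 8.25, 10.7 and 9.82 TPM against 15.8, 15.4 and 22.6 TPM (1.65 ± 0.21, adjusted p = 0.000473), and the junction gene PECAM1 rose by 1.68 ± 0.31. All 3 also rose on the TPM scale. The lymphatic gene LYVE1 rose by 1.48 ± 0.32 but did not pass on the TPM scale (0.84, adjusted p = 0.0634). ADM, which encodes the vasodilator adrenomedullin, was at 14.5, 11.9 and 14.8 TPM against 98.8, 92.9 and 33.6 TPM (3.07 ± 0.40, adjusted p = 0.000583).

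Of 29 interstitial matrix genes 4 rose and 4 fell, shares no larger than the 15.8% and 18% over all genes. On the TPM scale 3 rose and 6 fell, and without Day 3 replicate 1 or replicate 3 these were 2 and 2. TNC, a glycoprotein of developing stroma, was at 29, 34 and 43.8 TPM at Day 3 and at 2.47, 1.34 and 2.61 TPM in Pregnancy (log2 change -3.42 ± 0.51, adjusted p = 0.00104), and the fibrillin gene FBN2 fell by 2.12 ± 0.48. THBS1, a thrombospondin, rose by 2.27 ± 0.32 and the fibril-associated collagen COL14A1 by 3.24 ± 0.58. The main fibrillar collagens did not pass: COL1A1 was at 2312.2, 1062.6 and 2148.8 TPM against 662, 899 and 364 TPM (-0.94 ± 0.52, adjusted p = 0.186). COL3A1 was at 1880.4, 1138.7 and 2161.7 TPM against 713, 661 and 525 TPM (-0.82 ± 0.33, adjusted p = 0.082) and passed on the TPM scale (-1.45, adjusted p = 0.00427), with upper-quartile scaling, library totals or DESeq2, and without Year 1 replicate 1 (adjusted p = 0.0201). In the basement membrane list 7 of 19 rose and 1 fell, against 1 and 2 on the TPM scale, and 3 rose without Day 3 replicate 1 or 2 or Pregnancy replicate 1. COL4A1, the collagen of vessel and follicle basement membranes, was the member that rose on both scales (127, 109 and 143 TPM against 321, 278 and 282 TPM; 1.86 ± 0.27, adjusted p = 0.000925). VCAN, the proteoglycan versican, was at 8.57, 7.09 and 10.9 TPM against 57.4, 44.2 and 39.3 TPM (3.04 ± 0.41, adjusted p = 0.000704). Among matrix proteases and inhibitors 8 of 22 rose and none fell (3 on the TPM scale; 5, 4 and 5 without Day 3 replicates 1, 2 and 3). MMP9, a gelatinase, was at 0.1, 0.15 and 0.31 TPM against 15.5, 17.2 and 1.09 TPM (6.45 ± 1.20, adjusted p = 0.00295).

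Of 20 macrophage genes tested, 14 rose and 1 fell, with a median of 1.86, against 15.8% of all genes that rose and 18% that fell. On the TPM scale 9 macrophage genes rose and 1 fell. Without Day 3 replicate 2 or replicate 3, 7 rose, and without replicate 1, 8 rose. CD163, a scavenger receptor for haemoglobin, was at 11.7, 9.29 and 7.49 TPM at Day 3 and at 43.6, 33.2 and 97.5 TPM in Pregnancy (3.29 ± 0.58, adjusted p = 0.00226). The lysosomal marker CD68 was at 17.5, 10.3 and 7.18 TPM against 44.4, 73.9 and 72.2 TPM (3.09 ± 0.57, adjusted p = 0.00294). The integrin gene ITGAM fell (15.2, 13.4 and 14.8 TPM against 3.28, 3.41 and 1.35 TPM; -1.82 ± 0.43, adjusted p = 0.00928). Of 10 genes of MHC class II antigen presentation 5 rose; none did on the TPM scale, without Pregnancy replicate 3, or without any 1 of the Day 3 libraries. The count was 3 without Pregnancy replicate 2 or any 1 of the Puberty libraries, and 9 without Year 1 replicate 1 or replicate 2. Among 20 lymphocyte genes 3 rose and 3 fell (1 and 5 on the TPM scale), and none rose without Day 3 replicate 2 or replicate 3. With TMM scaling these lymphocyte counts were close to the shares over all genes, of which 15.8% rose and 18% fell. PAX5, a B-cell transcription factor, was at 1.45, 2.32 and 2.53 TPM at Day 3 and at 0.05 TPM or lower in Pregnancy (-5.12 ± 0.45, adjusted p = 8.65e-05), while the B-cell marker MS4A1 was at 0.2 TPM or lower in all 6 libraries. None of 6 mast cell and granulocyte genes passed, and on the TPM scale 2 fell. The neutrophil gene S100A12, whose low counts in most libraries kept it out of the test, was at 1282.8 TPM in Pregnancy replicate 3 and between 0.99 and 6.57 TPM in the other 5 libraries.

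A2M, the protease inhibitor alpha-2-macroglobulin (chr5:62406928-62483690), had the lowest p among the 10 largest rises of well-expressed genes. It was at 29, 15.8 and 28.9 TPM at Day 3 and at 727, 760 and 1373.4 TPM in Pregnancy, with no overlap (log2 change 5.92 ± 0.49, adjusted p = 6.96e-05). The antioxidant gene GPX3 was at 69.3, 111 and 153 TPM against 1355.3, 984 and 12637.2 TPM (6.19 ± 1.24, adjusted p = 0.00417; 3.99 without Pregnancy replicate 3). ADAMDEC1, a metalloprotease gene, was at 1.53, 0.64 and 0.8 TPM against 15.6, 10.5 and 1307.7 TPM (9.56 ± 2.13, adjusted p = 0.00709; 4.34 without replicate 3). PLBD1, a phospholipase-like gene, was at 4.19, 3.71 and 2.74 TPM against 34.9, 35.8 and 2745.1 TPM (8.76 ± 1.88, adjusted p = 0.00585; 3.90 without replicate 3). In GPX3, ADAMDEC1 and PLBD1 replicates 1 and 2 were above all Day 3 libraries and replicate 3 was far higher again. VSTM2A showed the opposite order, at 4.37, 4.22 and 2.79 TPM against 120, 144 and 11.8 TPM (5.43 ± 1.46, adjusted p = 0.0171), and its call was lost without any 1 of the Day 3 libraries (highest adjusted p = 0.0657). CYP11A1, MSMB, NR5A2, PTGFR and SCARB1, described above, completed the 10 largest rises among genes whose mean log2 CPM reached 3 and whose groups did not overlap.

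**Figure D4:**
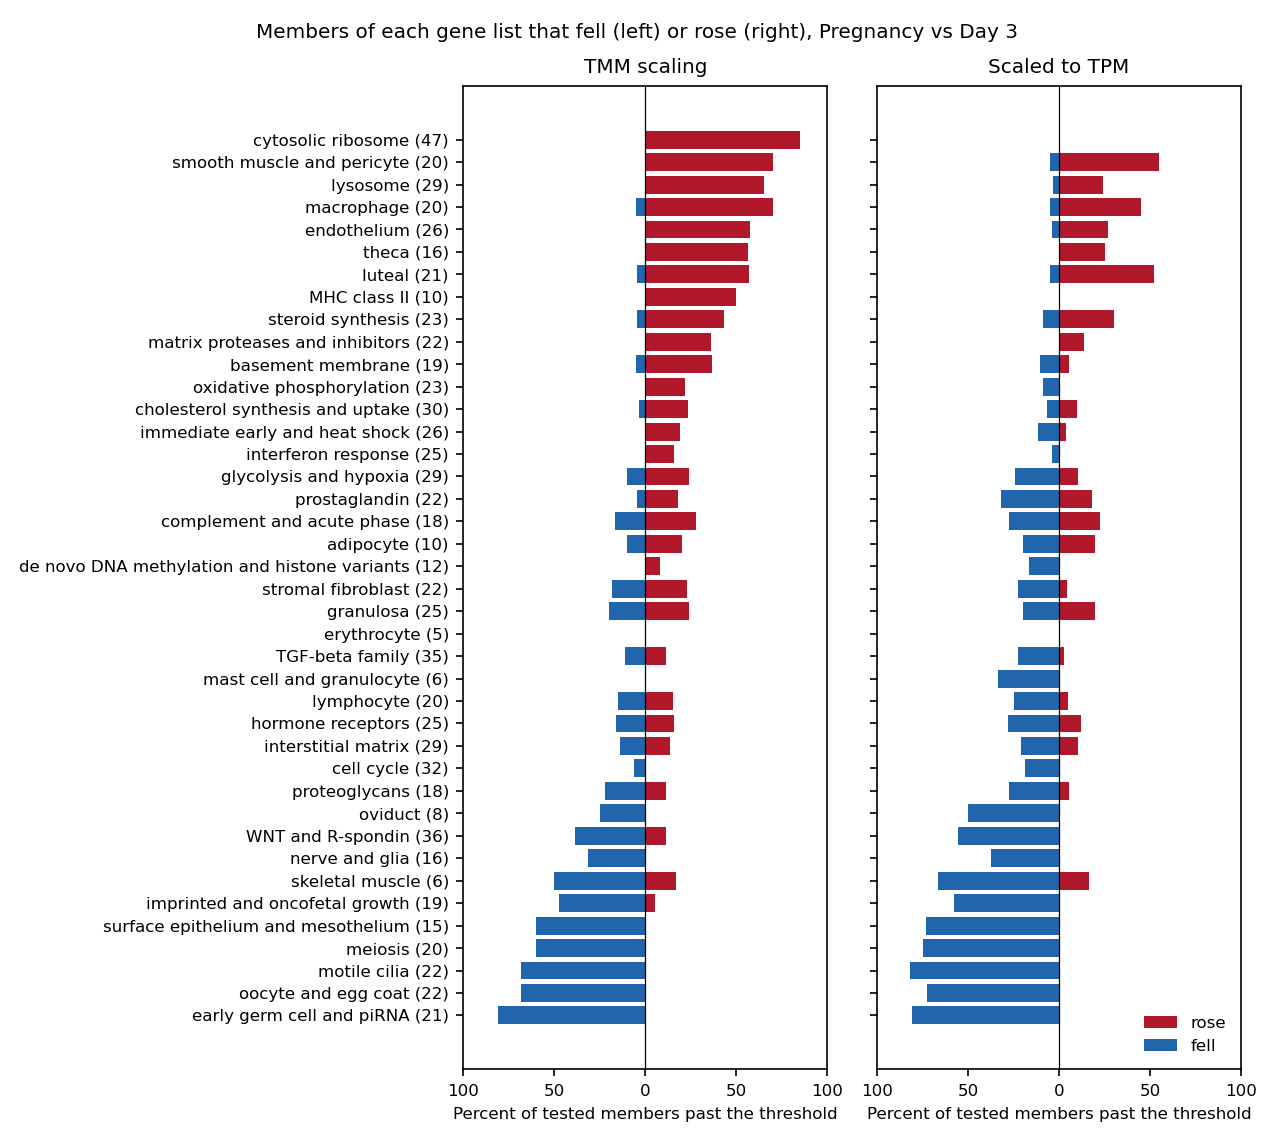
Percent of the tested members of each of 40 gene lists that rose (red, right) or fell (blue, left), with TMM scaling in the left panel and on the TPM scale in the right panel; the number tested is in brackets. The early germ cell, oocyte, motile cilia, meiosis and surface epithelium lists fall on both scales, while cytosolic ribosome (40 of 47 with TMM, 0 on the TPM scale) and MHC class II (5 and 0 of 10) rise on only 1 of them.

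Of 15 genes of the ovarian surface epithelium and mesothelium 9 fell and none rose, with a median of -2.48 (11 fell on the TPM scale). LGR5 (chr5:35463257-35595234), an R-spondin receptor of the WNT pathway, marks surface epithelial progenitors in the mouse. It was at 3.73, 2.71 and 1.24 TPM at Day 3 and at 0.02, 0 and 0 TPM in Pregnancy (-7.13 ± 0.91, adjusted p = 0.000515). The keratin gene KRT19 was at 117, 127 and 82.7 TPM against 5.17, 4.37 and 0.91 TPM (-4.35 ± 0.71, adjusted p = 0.0016), and the cadherin gene CDH1 fell by 3.42 ± 0.57. Of 22 motile cilia genes 15 fell and none rose, with a median of -2.99 (18 fell on the TPM scale). The dynein gene DNAH11 was at 10.2, 14.9 and 11 TPM against 0.15, 0.23 and 0.36 TPM (-4.98 ± 0.45, adjusted p = 0.00011). FOXJ1, the master regulator of motile cilia, was at 9.97, 26.9 and 2.2 TPM at Day 3 and at 0.11 TPM or lower in Pregnancy (-6.57 ± 1.18, adjusted p = 0.00251). The Day 3 libraries differed among themselves here, by more than 10-fold in FOXJ1. Of 8 oviduct markers 2 fell (4 on the TPM scale). PAX2, a duct factor, fell from 0.9, 0.7 and 0.38 TPM to 0.02, 0 and 0 TPM, and EHF, an epithelial factor, fell in a call lost without Day 3 replicate 2 or Pregnancy replicate 1 or 3. The secretory gene OVGP1 did not pass (0.51 ± 0.67, adjusted p = 0.585). The part of neighbouring duct or surface tissue in these falls was not tested.

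In the WNT and R-spondin list 14 of 36 fell and 4 rose, against 18% and 15.8% of all genes, with a median of -0.98; on the TPM scale 20 fell and none rose, and 1 or 2 rose without any 1 of the Day 3 or Puberty libraries or Pregnancy replicate 3. The ligand gene WNT4, needed for ovarian development, was at 17.9, 21.9 and 23.5 TPM at Day 3 and at 0.75, 2.65 and 0.4 TPM in Pregnancy (-3.44 ± 0.73, adjusted p = 0.00553). RSPO2, whose product amplifies WNT signals, was at 36.1, 44.5 and 65.3 TPM against 0.95, 1.99 and 0.57 TPM (-4.72 ± 0.76, adjusted p = 0.0015), and RSPO1 fell by 4.20 ± 0.98. The transcription factor LEF1, which answers WNT signals, was at 41.5, 35.6 and 33.1 TPM against 4.16, 4.8 and 3.85 TPM (-2.79 ± 0.24, adjusted p = 8.21e-05). The groups did not overlap for these genes. FZD1, a WNT receptor gene, rose with TMM scaling (1.34 ± 0.27, adjusted p = 0.00401) and did not pass on the TPM scale.

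Of 19 imprinted and oncofetal genes 9 fell and 1 rose (11 and 0 on the TPM scale), with a median of -1.23. IGF2, the imprinted fetal growth factor, was at 184, 149 and 249 TPM at Day 3 and at 29.3, 22.8 and 17.6 TPM in Pregnancy (-2.40 ± 0.38, adjusted p = 0.00132). IGF2BP2 and IGF2BP3, whose products bind IGF2 mRNA, fell by 5.13 ± 0.57 and 4.50 ± 0.54; IGF2BP2 was at 29.4, 30.7 and 27.3 TPM against 0.99, 0.52 and 0.13 TPM. IGF2BP1 fell from 3.61, 2.55 and 2.39 TPM to 0.02, 0 and 0 TPM. Among 35 genes of the TGF-beta family 4 rose and 4 fell, and among 25 hormone receptors 4 rose and 4 fell. On the TPM scale these were 1 and 8, and 3 and 7, where 507 of 15699 genes rose and 5491 fell. With TMM scaling the shares were near or below the 15.8% and 18% over all genes. Without any 1 of the Day 3 libraries 2 genes of the TGF-beta family fell and 2 hormone receptors rose. RARB, a retinoic acid receptor, was at 34.4, 41.9 and 42 TPM against 12.2, 11.8 and 5.91 TPM (-1.36 ± 0.27, adjusted p = 0.00426). The oestrogen receptor gene ESR1 did not pass (-0.04 ± 0.62, adjusted p = 0.967). KITLG, the granulosa ligand for the oocyte receptor KIT, was at 12.6, 9.75 and 14 TPM against 2.49, 2.77 and 16.8 TPM; it did not pass (-0.02 ± 0.67, adjusted p = 0.985) and fell without Pregnancy replicate 3 (-1.63, adjusted p = 0.0102).

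The counts for lysosome and ribosome genes depended on the scale. In the lysosome list 19 of 29 rose and none fell, with a median of 1.67; 7 rose and 1 fell on the TPM scale, 12 rose without Pregnancy replicate 3, and 7, 5 and 10 rose without Day 3 replicates 1, 2 and 3. CTSL, a cathepsin, was at 4.79, 2.93 and 2.8 TPM at Day 3 and at 85.2, 86.8 and 84.8 TPM in Pregnancy (5.24 ± 1.16, adjusted p = 0.00689), and CTSK rose by 2.12 ± 0.40; both passed on the TPM scale. In the cytosolic ribosome list 40 of 47 rose, with a median of 0.88, and none passed on the TPM scale. Summed over its 47 genes the level was 154694.5, 160694.3 and 148099.3 TPM at Day 3, 226648.8 and 225635.2 TPM in Pregnancy replicates 1 and 2, and 108182.6 TPM in replicate 3. Replicates 1 and 2 were thus above and replicate 3 below all Day 3 libraries. All 47 rose without Pregnancy replicate 3, and 13 to 17 rose without any 1 of the other 5 libraries of the comparison. THY1, a fibroblast surface protein, was at 178, 169 and 160 TPM at Day 3 and at 174, 201 and 160 TPM in Pregnancy, yet passed with TMM scaling (1.04 ± 0.21, adjusted p = 0.00392) and did not on the TPM scale (0.41, adjusted p = 0.237). EED, of the polycomb complex, was at 21.7, 19.3 and 22.2 TPM at Day 3 and at 21.1, 19.4 and 20.4 TPM in Pregnancy, and passed with TMM scaling (0.60 ± 0.17, adjusted p = 0.0208); its sign turned on the TPM scale (-0.04), and it did not pass without any 1 of the Day 3 libraries.

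The other lists held small counts, to be read against the 15.8% of all genes that rose and the 18% that fell. On the TPM scale 507 of 15699 genes rose and 5491 fell. Of 26 genes of the immediate early and heat shock responses, which handling can also induce, 5 rose (1 on the TPM scale, where 3 fell). Among 25 interferon response genes 4 rose (0 on the TPM scale), and among 29 glycolysis and hypoxia genes 7 rose and 3 fell (3 and 7 on the TPM scale). Of 22 prostaglandin genes 4 rose and 1 fell (4 and 7 on the TPM scale), and of 18 complement and acute phase genes 5 rose and 3 fell (4 and 5). Of 23 oxidative phosphorylation genes 5 rose (0 on the TPM scale, where 2 fell). Of 18 proteoglycans 2 rose and 4 fell (1 and 5 on the TPM scale), and of 22 stromal fibroblast genes 5 rose and 4 fell (1 and 5). In the nerve and glia list 5 of 16 fell (6 on the TPM scale), and in the adipocyte list 2 of 10 rose and 1 fell (2 and 2). In the skeletal muscle list 1 of 6 rose and 3 fell (1 and 4 on the TPM scale), and in the list of DNA methylation and histone variants 1 of 12 rose (0 on the TPM scale, where 2 fell). No erythrocyte gene of 5 passed. The haemoglobin gene HBB, a measure of blood in a piece, was at 874, 1130.8 and 1013.4 TPM at Day 3 and at 291, 283 and 2036.1 TPM in Pregnancy, where replicate 3 was again the highest. Its part in the results that rest on replicate 3 was not tested. Most of these smaller counts moved by over 1.5 times when 1 library was left out. Without Day 3 replicate 2, for example, 1 immediate early gene, no interferon response gene, 3 glycolysis genes, no prostaglandin gene and 3 complement genes rose. At the other end 9 immediate early genes rose without Puberty replicate 3 and 13 interferon response genes without Year 1 replicate 2.

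**Figure D5:**
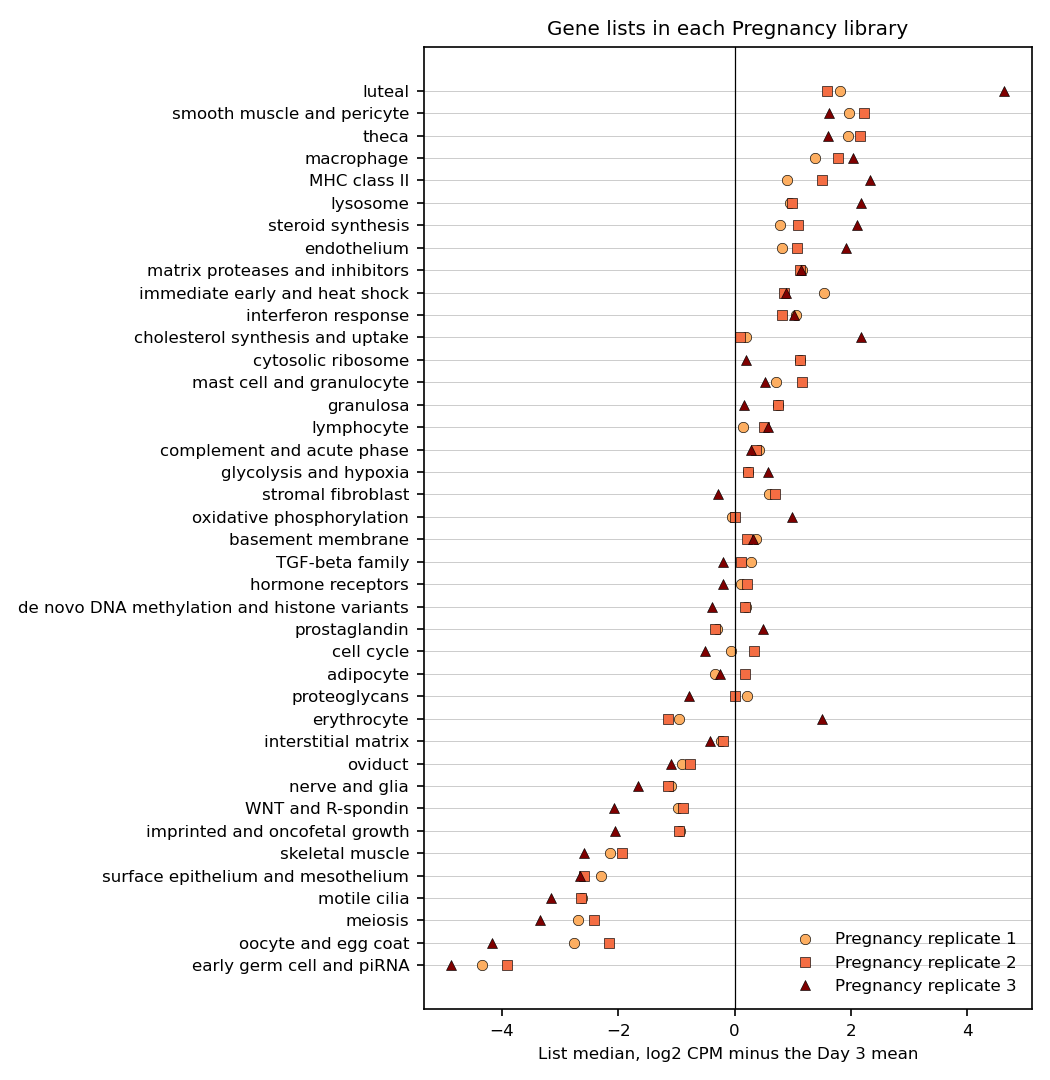
Median over the tested members of each list of the log2 CPM in 1 Pregnancy library minus the mean of the 3 Day 3 libraries (horizontal axis), with 1 symbol for each Pregnancy replicate. Replicate 3 (triangles) lies far to the right of replicates 1 and 2 for the luteal, cholesterol, steroid synthesis and lysosome lists. It lies to their left for the ribosome, oocyte and early germ cell lists. All 3 replicates lie below 0 for motile cilia, surface epithelium and early germ cells.

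Few genes passed between Pregnancy and the other later stages, with a wide spread within Pregnancy. Pregnancy replicate 3 lay 1.2 from its stage mates, while Pregnancy replicates 1 and 2 lay 0.609 to 0.76 from the Puberty libraries. A lack of calls here therefore does not show that the stages are alike. Puberty differed from Day 3 at 4485 genes (28.6%) and Year 1 at 7503 (47.8%). Pregnancy differed from Puberty at no gene with edgeR (0 of 15699, 0%; 1146 genes at an unadjusted p under 0.05, and 97 with DESeq2) and from Year 1 at 455 (2.9%). These comparisons share libraries and 1 fit. Of the 102 genes chosen by rule, 86 passed against Day 3 and 9 against Year 1. Most were chosen by their change or p-value against Day 3, so the count of 86 was largely set by the choice. It cannot be compared with the count of 9. DDX4 was higher in Pregnancy than at Year 1, where it was at 1.24, 1.01 and 1.05 TPM (1.19 ± 0.22, adjusted p = 0.0404), and so was MAEL (1.63 ± 0.33, adjusted p = 0.0449). PLN was at 9.89, 4.39 and 6.33 TPM at Year 1 and was higher in Pregnancy by 2.01 ± 0.38 (adjusted p = 0.0404). COL4A1 was higher at Year 1 (565, 784 and 801 TPM) than in Pregnancy (-1.46 ± 0.27, adjusted p = 0.0404). KIT, which did not pass against Day 3 (-0.84 ± 0.36, adjusted p = 0.0914), except without Year 1 replicate 1 (adjusted p = 0.0127), was lower in Pregnancy than at Year 1 (-2.74 ± 0.37, adjusted p = 0.035). STAR was at 50.7, 5294.4 and 5107.3 TPM at Year 1, so that the range of Pregnancy (5.88 to 3948.6 TPM) overlapped that of Year 1 (-1.56 ± 1.94, adjusted p = 0.621).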

How the data were processed

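Per the labels, mRNA was captured on oligo(dT) beads. Per the submitters' processing notes, tools for these libraries were Bowtie2 2.3.4.3, RSEM 1.3.1 and DESeq2 1.4.5 with the build Sscrofa11.1. The authors deposited RSEM expected counts and TPM for 18753 genes, with their log2 fold changes and q-values, from which 7241 genes at a q under 0.05 for this pair were counted in the authors' deposited table. Coordinates are those of the deposited table. Whether counting used strand is not given in the sources used here. Expected counts were rounded to whole numbers, and between 92.956% and 94.678% of a library's values were already whole. Genes were kept by filterByExpr with a minimum count of 10, scaled with TMM and tested with edgeR 4.0.16 (R 4.3.3): quasi-likelihood test, two-sided, 1 term per stage, all 12 mRNA libraries in 1 fit, Benjamini-Hochberg over 15699 genes, threshold 0.05. The common dispersion had a square root of 0.401. The SE of a log2 change is the change divided by the root of its F statistic. TPM values give levels and were not tested. "On the TPM scale" means the same counts with library factors that set them to the deposited TPM, a scaling added after seeing the data, as was that by library totals. DESeq2 1.42.0 and limma 3.58.1 (voom with quality weights for each library) were alternatives. The weighted fit is no check separate from leaving out Pregnancy replicate 3. The scripts were tested on simulated counts. Totals of 14615474 to 16187915 counts limit precision for the least expressed genes.

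The rule for named genes took the 10 largest rises and 10 largest falls among called genes. These had a mean log2 CPM of at least 3, an informative symbol and no overlap between groups. It then took the 10 lowest p-values among genes with that mean and an informative symbol. The lowest p in each of 40 gene lists (2 genes in core ovarian lists) and a fixed set of ovarian genes were added without these conditions. The rule gave 102 genes in all. Further list members and S100A12 and HBB were named after their values were seen. The comparison, the lists and the genes were chosen with earlier results of these data known. Symbols were matched to a RefSeq gene table by identifier (18753 of 18753). No sequence was printed. Small RNA libraries were not analysed here.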

Additional observations from a re-analysis of the deposited data

How the results depend on the processing

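The total of 5301 genes called was 5998 on the TPM scale, 4781 with library totals, 5044 with RLE, 4834 with upper-quartile scaling, 5437 of 18745 without a count filter, 4432 with a minimum count of 50, 6433 with DESeq2 and 5699 with only the 6 libraries fitted. On the TPM scale 507 rose and 5491 fell, and with library totals 933 rose. Limma voom with quality weights called 8688 (4359 higher, 4329 lower), and a test against a fold of 2 called 1622 (273 higher, 1349 lower). With only the 6 libraries and without Pregnancy replicate 3, 8545 were called (4086 higher, 4459 lower). Leaving out 1 library at a time gave 3274 to 7038 calls, 1137 to 3416 of them higher and 2137 to 3622 lower; without Pregnancy replicate 3, 4006 of 4669 calls were shared with the 5301. Same-numbered libraries of the stages did not deviate together (correlations of -0.064, -0.016 and -0.083), and the numbers were taken only to name samples. With 3 libraries in a stage these correlations cannot exclude a factor shared by same-numbered libraries. A replicate block gave 4657 calls in 12 libraries and 3718 (1319 higher) in 6. In the fit of 6, 10 named genes lost a call, STAR (8.32, adjusted p = 0.0667), LIPA, PLBD1 and ADAMDEC1 among them. With voom, AMH, FSHR, KIT, KITLG, ZP2, MKI67 and GYPC passed and STAR, HSD3B1 and SCARB1 did not. Among the 102 named genes the direction turned for RLN2 without Pregnancy replicate 3 (-2.06, in a range of -2.06 to 16.64 over the 12 fits), without it and Year 1 replicate 1 together (-2.07) and with voom (-0.37), and for EED on the TPM scale (-0.04). On the TPM scale 7 other named genes lost and 3 gained a call, and without Pregnancy replicate 3 these were 6 and 1; the cause was not tested. Counts of members that fell in the oocyte, early germ cell, meiosis, motile cilia and surface epithelium lists stayed within 1.5 times under every scaling and on leaving out any 1 library. A gene at 0 counts in all 3 libraries of a stage (59 of those tested in Pregnancy, 14 at Day 3) has no fold change that can be read.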

Other observations

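The Day 3 libraries differed from each other in how far germ-cell genes stood above the mean of all libraries. The median of the meiosis list (log2 CPM, centred over the 12 libraries) was 2.59, 2.40 and 1.60 in Day 3 replicates 1, 2 and 3, and that of the oocyte and egg-coat list was 2.37, 2.78 and 2.89. KHDC3L, a maternal-effect gene of growing oocytes, was at 611, 783 and 1595.8 TPM and the embryo-essential gene PADI6 at 169, 404 and 614 TPM. HORMAD1, of the meiotic chromosome axis, was at 9.08, 4.28 and 1.56 TPM and RBM46, a germ-cell RNA-binding gene, at 8.9, 5.33 and 2.6 TPM. Not all members followed the list medians: FIGLA was lowest in replicate 3 (112, 155 and 99.3 TPM) and NOBOX highest in replicate 2 (87.8, 127 and 111 TPM). The 4 genes named first were chosen after their values were seen, and the difference between these libraries was not tested.

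A single library held most of the level of several genes. HP, the haptoglobin gene, was at 427 TPM in Pregnancy replicate 3 and between 2.25 and 6.61 TPM in the other 5 libraries. The macrophage receptor gene MARCO was at 36.7 TPM there and at 0.54 TPM or lower elsewhere in the comparison.

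Of genes tested at 0 counts in all Day 3 libraries 3 of 14 were called, and of those at 0 in all Pregnancy libraries 57 of 59. The share over all genes tested was 33.8%. A gene at 0 in a stage passed the count filter only through its counts in another stage. The filter therefore shaped both counts, and they are no result about these genes.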
